A study of Mus musculus with 12 samples.

Results

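Genes commonly used to mark macrophages were followed across a culture series of mouse embryonic stem (ES) cells. They are Lyz1, Lyz2, Ctss, Adgre1, Csf1r, Cd68, Aif1, Tyrobp and Fcer1g. These 9 were taken by name from 27713 genes on the array, with older names (Lzp-s for Lyz1, Lyzs for Lyz2, Emr1 for Adgre1) counted as the same gene. They are read by 15 probes, and all 9 were among the 21344 genes tested. The list was chosen with the difference between the culture arms at day 3 already known from these arrays, so every day 3 value of these genes is a description and carries no test.

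The series holds 12 one-colour arrays of total RNA, 1 for each combination of 2 reporter lines, 2 arms and days 0, 3 and 10. The lines carry the constructs Stella-GFP or Dazl-GFP and are described as independent. Each arm and day therefore has 2 arrays, 1 of each line. Common to all groups were leukemia inhibitory factor (LIF), a cytokine that keeps mouse ES cells undifferentiated, and a feeder layer of embryonic fibroblasts stopped from dividing by γ-irradiation. One arm grew in DMEM with 15% fetal bovine serum (FBS) and the other in serum-free B27N2 medium. For 2i culture the MEK inhibitor PD0325901 (1 µM) and the GSK3β inhibitor Kenpaullone (5 µM) are named. The serum-free arm carries the 2i name at every day, day 0 included. What its day 0 cells received, and whether the FBS arm received inhibitors, is not spelled out. Whether feeder cells were removed before RNA extraction is not said either. P-values measure the spread between these arrays, and the labels do not say that the arrays stand for separate repeat cultures of a line.

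Macrophages are phagocytes that take up and digest microbes, dead cells and debris. Their survival depends on the receptor Csf1r and its ligands Csf1 and Il34, and their identity on transcription factors such as PU.1, which is the product of Spi1. Many of their surface receptors, including Trem2 and several Fc receptors, have no signalling tail of their own and act through the adaptors Tyrobp and Fcer1g. Preparations of embryonic fibroblasts can carry macrophages along, and some of the 9 genes are also expressed in other cell types.

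Levels below are percentages of the 75th percentile of the signal on the same array, which itself lay between 454 and 947 intensity units. It was lowest on the FBS day 3 arrays, at 454 (Stella-GFP) and 562 (Dazl-GFP). Between 62.5% and 72.7% of spots were well above background. FBS Stella-GFP at day 3 had the lowest share and the widest spread of replicate spots, with a coefficient of variation of 9.71%. The highest levels of Ctss, Adgre1, Csf1r, Aif1 and Tyrobp below are from that array. The ES cell label held: 8 of 8 ES cell markers measured were well above background on all 12 arrays. So were 14 of 15 fibroblast markers. Some defining leukocyte genes were dim. Ptprc, which encodes the pan-leukocyte antigen CD45, was well above background on 4 arrays and never exceeded 2.18%. Itgam was above background on 1 array, and Cd163, Ccr2, Msr1, Cd84 and Clec7a on none (0 arrays). These 5 were the only such genes among 32 further macrophage genes. Of the same 32, 14 were above background on all 12 arrays, among them C1qb (up to 43.8%) and Coro1a (up to 273%).

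Lyz1 and Lyz2 encode lysozymes, enzymes that cut bacterial cell walls, and are tandem copies of one another. In the RefSeq table (build GRCm38.p6) both lie on the minus strand of chromosome 10, Lyz2 at chr10:117277541-117282272 and Lyz1 at chr10:117287795-117292868, with 5522 bases between them. Since the levels of these copies moved together on the arrays, the 250 bases upstream of each start are shown. Capitals mark ACTTCCT, the reverse complement of AGGAAGT, a core sequence of sites bound by ETS factors such as PU.1.
Lyz1, chr10:117292869-117293118, minus strand: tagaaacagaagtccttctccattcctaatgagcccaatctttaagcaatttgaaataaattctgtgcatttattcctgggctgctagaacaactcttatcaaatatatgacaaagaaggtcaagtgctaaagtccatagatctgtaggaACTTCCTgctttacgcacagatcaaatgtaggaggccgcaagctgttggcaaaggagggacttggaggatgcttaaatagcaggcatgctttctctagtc
Lyz2, chr10:117282273-117282522, minus strand: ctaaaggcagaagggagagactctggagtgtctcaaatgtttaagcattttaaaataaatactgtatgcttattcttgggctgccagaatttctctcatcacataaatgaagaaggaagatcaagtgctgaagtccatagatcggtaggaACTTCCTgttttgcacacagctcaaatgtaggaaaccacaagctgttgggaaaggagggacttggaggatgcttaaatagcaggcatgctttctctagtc
Compared without gaps, the windows share 152 of 250 bases (60.8%), and 92 of the 100 bases nearest the start. The 7 letters begin 100 bases before the start in both genes. Over 32851 RefSeq promoter windows of this length, 7.69% held AGGAAGT on either strand. Windows of 6 of the 9 genes were searched, without Adgre1, Csf1r and Tyrobp, and Lyz1 and Lyz2 were the 2 with the motif in the window. In Ctss (window chr3:95526536-95526785, plus strand) the same letters begin 2 bases before the start and run past it, so they fell outside. A match in letters describes the sequence and shows no binding. Because the copies are nearly alike and probe sequences were not used here, how far each lysozyme probe also reads the other copy was not tested.

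In FBS, Lyz1 stood at 20.7% (Stella-GFP) and 101.9% (Dazl-GFP) on day 0, 78.4% and 40.6% on day 3, and 11.7% and 13.4% on day 10. In the serum-free arm it stood at 23.4% and 15.5% on day 0, 0.391% and 1.76% on day 3, and 3.66% and 6.76% on day 10, always with Stella-GFP given first. The lower of the day 3 values was not well above background. The arms overlapped at day 0 and were apart at days 3 and 10, with the serum-free arrays lower.

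Lyz2 followed the same course at a brighter probe. Its FBS values were 162% and 622% on day 0, 608% and 306% on day 3, and 97.8% and 109% on day 10. In serum-free medium they were 205% and 104%, then 4.20% and 14.5%, then 31.5% and 56.0%. Across the 12 arrays Lyz1 and Lyz2 correlated at r = 0.998, a description across points that share slides and scaling. How far each probe reads the other copy was not tested, so the lysozymes may not be separate readings in the counts below. A further Lyz2 probe was above background on 4 arrays only, all of them in FBS at days 0 and 3 or serum-free at day 0. Ordered by group mean, both lysozymes ran from FBS day 3 through FBS day 0, serum-free day 0, FBS day 10 and serum-free day 10 to serum-free day 3. FBS day 3, FBS day 0 and serum-free day 0 did not differ from one to the next beyond the SD within groups. From serum-free day 0 to FBS day 10 the step exceeded the SD for Lyz1 and not for Lyz2, and the later steps exceeded it for both. The range from the lowest to the highest array was 148-fold for Lyz2 and, over the 11 arrays that detected it, 57.8-fold for Lyz1, against a median of 2.67-fold over all genes tested.

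At day 3, serum-free minus FBS was -6.09 for Lyz1 on the log2 scale (-7.65 in Stella-GFP, -4.53 in Dazl-GFP). The Stella-GFP value, and with it the mean, sets FBS against a serum-free reading below detection, so their size is uncertain, whereas both Dazl-GFP arrays were above background. Under normexp background correction, run with an added offset of 50 intensity units that narrows differences of dim readings, the Lyz1 mean was -2.87. For Lyz2, detected on every array, the day 3 difference without that correction was -5.79 (-7.18 and -4.40). In each case the Stella-GFP gap was the wider. The FBS arm did not do the same in both lines between days 0 and 3. Lyz1 differed by 1.92 log2 in Stella-GFP and -1.33 in Dazl-GFP, whose day 0 level was already the highest of the 12. In serum-free medium both lines were lower at day 3 than at day 0, with changes of -5.91 and -3.14. At day 10 the lines were 3.23 and 1.94 above day 3. The Stella-GFP values, -5.91 and 3.23, rest on the day 3 reading below detection, so their size is uncertain too.

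Ctss (chr3:95526786-95556405) encodes cathepsin S, a lysosomal protease that processes the invariant chain during antigen presentation. Its FBS values were 10.9% and 19.6% on day 0, 80.8% and 46.4% on day 3, and 16.7% and 14.9% on day 10. The serum-free values were 5.47% and 3.38%, then 2.20% and 1.75%, then 4.26% and 6.71%, with the lower day 3 array not well above background. FBS was above serum-free at every day in both lines, with no overlap. The difference was -1.77 at day 0, -4.97 at day 3 (-5.20 and -4.73 in the lines, the latter against the undetected array) and -1.56 at day 10. Under normexp the day 3 value was -2.74. Ordered by group mean, Ctss in FBS at day 3 stood apart from its next group, FBS at day 10, by 1.96 log2, more than the SD of either group. Serum-free days 10 and 0 did not differ beyond their spread.

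Adgre1 (chr17:57358581-57483529) encodes an adhesion-type receptor of the macrophage surface, long used to stain mouse macrophages. In FBS it read 3.53% and 10.9% on day 0, 31.9% and 14.6% on day 3, and 5.99% and 6.79% on day 10. In serum-free medium it read 17.1% and 8.75%, then 3.48% and 3.52%, then 7.92% and 17.3%. On these values serum-free was below FBS at day 3 (-2.62) and above it at day 10 in both lines (0.88). With the slide as a term both were negative, -4.47 at day 3 and -1.90 at day 10. The second Adgre1 probe was above background on 0 arrays.

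Tyrobp (chr7:30413782-30417582) encodes the adaptor that carries the signal of Trem2 and related receptors. It read 3.81% and 9.81% in FBS on day 0, 20.2% and 10.8% on day 3, and 5.43% and 3.19% on day 10. Its serum-free values were 3.55% and 3.22% on day 0, 0.901% and 1.49% on day 3, and 1.59% and 3.04% on day 10. Neither serum-free day 3 array was well above background, so the day 3 difference is given as at least 9.56-fold lower in serum-free medium. This bound sets the mean of the FBS arrays against the lowest signal that counted as above background on each dim array. Where the gene's own undetected reading was higher than that signal, the reading was used instead. An undetected reading can thus exceed that lowest signal, so this and the other "at least" values are approximate. Aif1 (chr17:35170986-35176083) encodes an actin-binding protein of macrophages and microglia. It was 7.25% and 3.95% in FBS at day 3. Its serum-free values at that day, 1.05% and 1.75%, were not well above background, which makes it at least 3.19-fold lower. At day 10 Aif1 was reversed, with 3.20% and 4.47% in serum-free medium. The FBS arrays were then not above background, at 1.55% and 1.86%.

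Csf1r, Fcer1g and Cd68 varied less between arrays. Csf1r, the receptor for Csf1 and Il34, lay between 2.71% and 7.18% on all arrays, with the highest value in FBS Stella-GFP at day 3. Fcer1g (chr1:171229572-171234349), a chain shared by several Fc receptors, lay between 15.8% and 39.3%, with FBS Dazl-GFP at day 3 highest. Cd68 (chr11:69664213-69666170), a glycoprotein of lysosomal membranes, lay between 33.1% and 83.4%, and its highest array was serum-free Dazl-GFP at day 3. The day 3 differences were -0.72 for Csf1r, -0.87 for Fcer1g and 0.25 for Cd68. For Cd68 no neighbouring groups in the order of means differed beyond their spread. The ranges over arrays, 2.65-, 2.49- and 2.52-fold, are close to the median gene's 2.67-fold. At day 3 the arms of Csf1r and Fcer1g did not overlap, while those of Cd68 did.

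**Figure D1:**
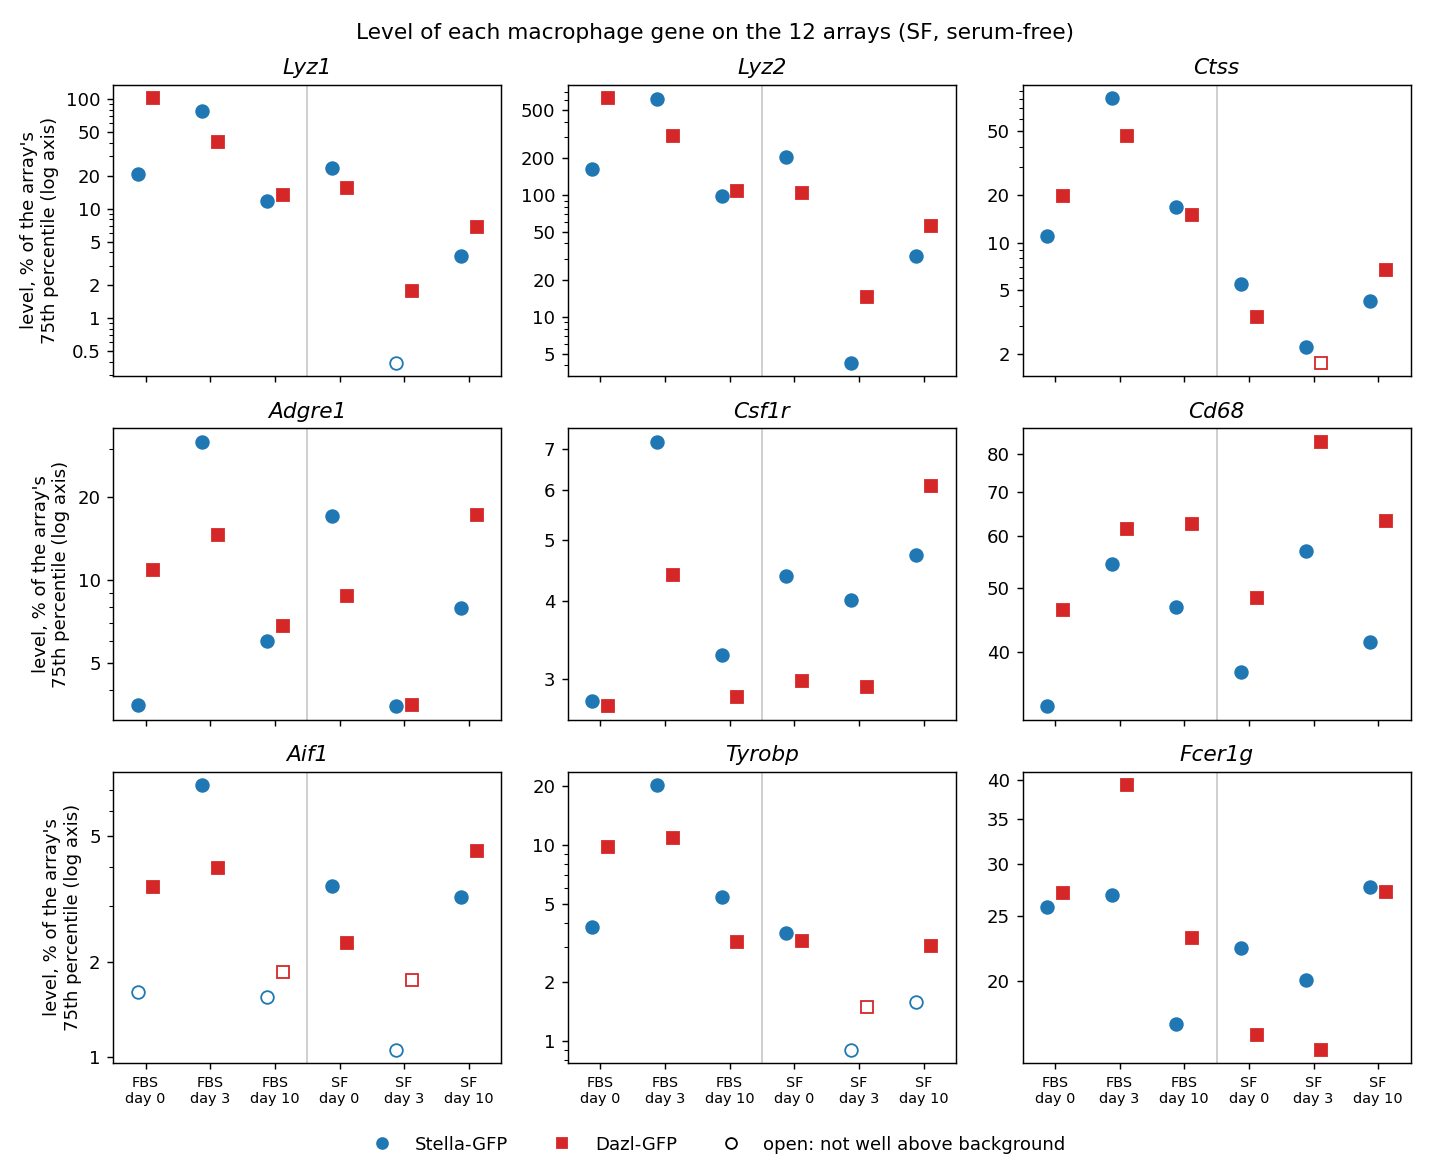
Level of each of the 9 genes on the 12 arrays, as a percentage of the array's 75th percentile on a log axis, by arm and day; circles are Stella-GFP, squares Dazl-GFP, and open symbols are not well above background. By group mean, Lyz1, Lyz2, Ctss, Adgre1, Aif1, Tyrobp and Fcer1g are lowest in serum-free (SF) medium at day 3. Csf1r and Cd68 are not, and Cd68 stays between 33.1% and 83.4%.

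At day 3 both serum-free arrays were below both FBS arrays for 8 of the 9 genes, Cd68 being the exception, and above them for 0. Over all genes tested, 41.8% lay below and 24.3% above by the same rule. Since the list was chosen on this contrast, nothing is read from that count. The median of the 9 differences was -2.62 (-3.20 in Stella-GFP and -2.05 in Dazl-GFP), beside -0.21 over all genes. That shift of all genes ranged from -0.32 to -0.08 under other background and scaling choices, and the direction of each of the 9 genes was the same in the 5 value settings tried. Between days 0 and 3 the mean difference was positive for 9 of 9 genes in FBS (median 1.04, beside 0.10 over all genes). Lyz1 and Lyz2 nevertheless fell in Dazl-GFP (-1.33 and -1.02). In serum-free medium the mean difference was negative for 8 (median -1.13, beside -0.04). Between days 3 and 10 the signs turned: 9 of 9 negative in FBS (median -1.76) and 8 positive in serum-free medium (median 1.45). Over all genes those medians were -0.11 and 0.19. These differences share the day 3 arrays with the contrast that chose the genes. The share of all genes with each sign is not given here, so nothing is read from these counts. Slide 2 held 1 array of each arm at day 3, from different lines, and there 8 of 9 were lower in the serum-free array (median -3.18). Nothing is read from that count either. With the slide as a term the median was -4.47.

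Other gene lists were tested at day 3 by limma with Benjamini-Hochberg adjustment over all genes, where 22.6% of all 21344 genes passed an adjusted p of 0.05, 1918 higher and 2900 lower in serum-free medium. These lists too were drawn up with earlier results known. Of 26 measured further macrophage genes, 13 fell in serum-free relative to FBS medium and 2 rose, with a median difference of -1.11. C1qc, a subunit of complement C1q, was at least 15.0-fold lower (adjusted p = 0.00307), from 29.1% and 16.7% in FBS to 0.728% and 1.05%. C1qa fell by 2.74 log2 (adjusted p = 0.00849) and Ms4a7, a membrane protein of macrophages, was at least 10.9-fold lower (adjusted p = 0.00603). C1qb, the other chain of the complex, differed by -1.12 (SE 0.35, adjusted p = 0.0555). All of these differences had the same sign in both lines. Ptprc passed the test (adjusted p = 0.0158) but was not above background on any day 3 array of either arm, so no fold is given. Over all other lists and comparisons 121 calls were made, a gene on 2 lists counted once. Leaving out 1 day 3 array left 73 (FBS Stella-GFP), 70 (FBS Dazl-GFP), 68 (serum-free Stella-GFP) or 66 (serum-free Dazl-GFP), and leaving out FBS Dazl-GFP at day 10 left 74.

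The partners of the receptor and the adaptors were mixed. Of 14 measured ITAM receptors and signalling genes, 6 fell and 4 rose, with a median of -0.37. Trem2, the lipid-sensing receptor that signals through Tyrobp, was at least 9.23-fold lower (adjusted p = 0.00164). Its FBS values were 16.5% and 12.1%, against 1.59% and 1.46% in serum-free medium. Fcgr1, an Fc receptor that uses Fcer1g, was at least 4.98-fold lower (adjusted p = 0.0105). Of 10 Csf1r ligands and myeloid transcription factors, 5 fell and 1 rose (median -1.10). Cebpa fell by 2.64 (adjusted p = 0.00212) and was detected on 1 of 2 arrays in serum-free medium. Cebpb fell by 2.03 (adjusted p = 0.00803). The ligand Csf1 fell by 1.73 (adjusted p = 0.0184), from 58.4% and 27.3% to 13.3% and 10.9%. The other ligand, Il34, differed by -0.27 (SE 0.21, adjusted p = 0.371), at 41.9% and 52.3% in FBS and up to 50.2% in serum-free medium. Spi1 was not above background in either group.

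The lysosomal list holds hydrolases and their partners, many of them found in every cell type. Of its 20 genes 3 rose and 1 fell in serum-free medium, with a median of 0.19. The gene that fell was Ctsk (-3.54, adjusted p = 0.00331), a collagen-degrading cathepsin, while Lipa, the lysosomal acid lipase, rose by 1.42 (adjusted p = 0.0136).

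Markers of other cells moved at the same day. Of 14 measured fibroblast markers 11 fell and 0 rose in serum-free medium, with a median of -2.42. The differences were -4.86 for S100a4 (adjusted p = 0.000908), -4.25 for Thy1 (adjusted p = 0.00151) and -4.23 for Twist2 (adjusted p = 0.000908). The summed level of the fibroblast markers at day 3 was 6014% to 11079% in FBS and 1164% to 1758% in serum-free medium. For the 9 macrophage genes the sums were 527% to 915% and 93.2% to 127%. Much of these came from single genes. In FBS Lyz2 alone read 608% and 306%, and in serum-free medium Cd68, which did not fall, read 56.9% and 83.4%. The part of feeder cells in the macrophage gene differences was not tested. In RNA from a whole culture, fewer cells of a type and less RNA per cell cannot be told apart. Among primitive endoderm markers 5 of 9 rose and 0 fell, with Cubn at 3.84 (adjusted p = 0.026), Sox17 at 2.87 (adjusted p = 0.00823) and Gata6 at 2.52 (adjusted p = 0.0105). Of 8 ES cell markers 1 fell, Tdgf1 (-0.70, adjusted p = 0.0386). Of other blood and vessel lists, lymphoid markers had 2 lower of 9, mast cell markers 1 lower of 6 (Gata2), and erythroid and endothelial markers 3 lower and 1 higher of 7. Granulocyte markers had 0 of 4 called by limma, 0 also at an unadjusted p under 0.05, and 7 of the 11 on the array were above background on no array.

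**Figure D2:**
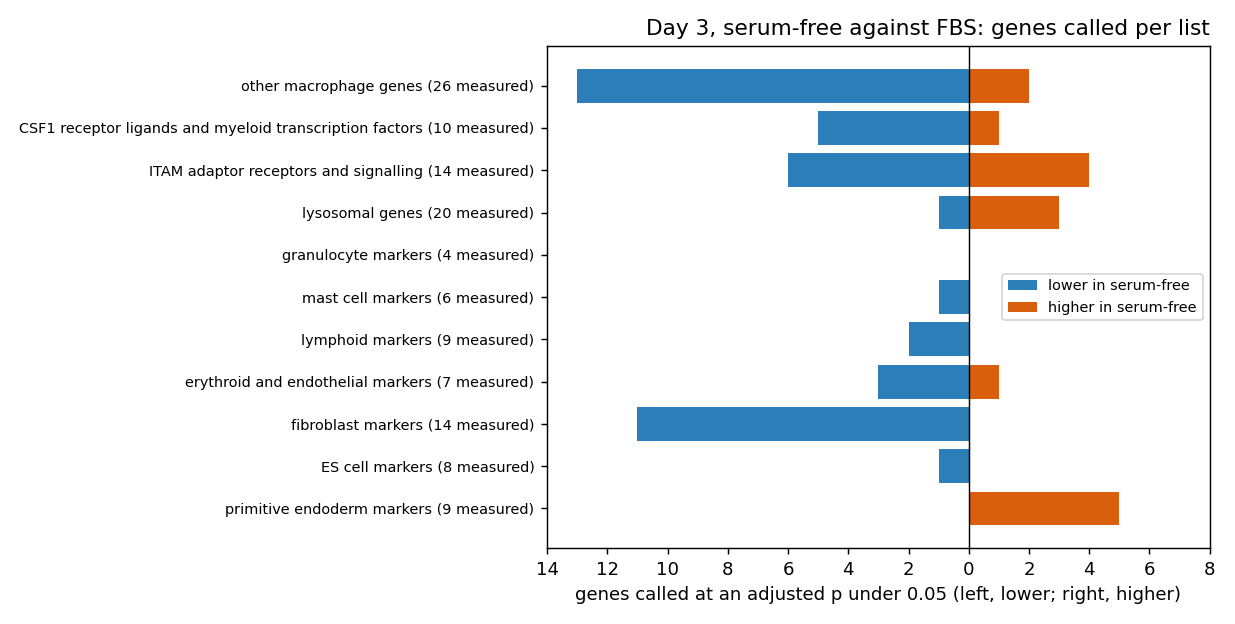
Genes called lower (left) or higher (right) in serum-free medium than in FBS at day 3, per gene list, with the number of genes measured after each name. The longest bars to the left are the 13 further macrophage genes and the 11 fibroblast markers.

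**Figure D3:**
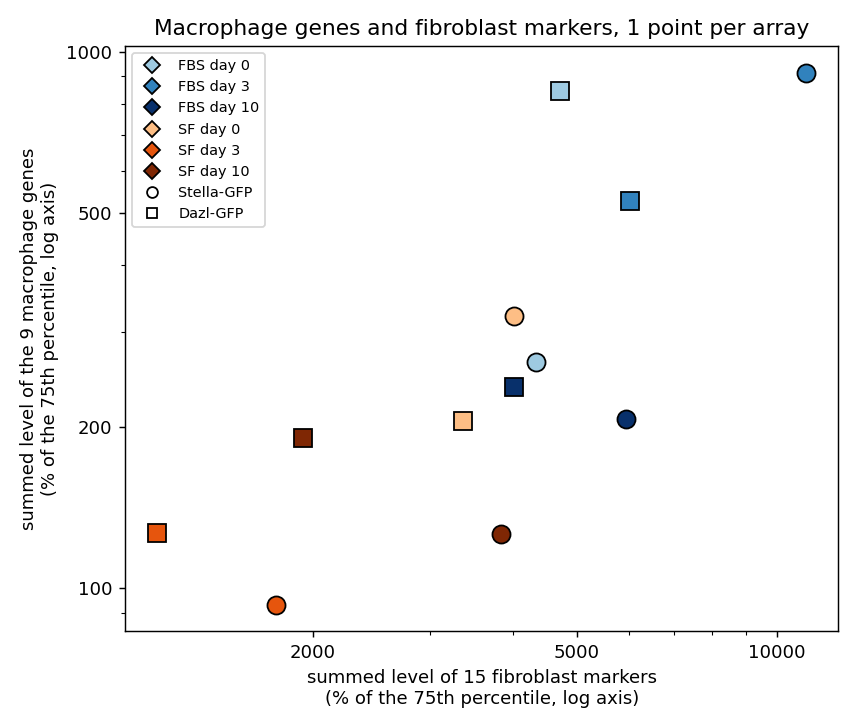
Summed level of the 9 macrophage genes against that of 15 fibroblast markers, 1 point per array on log axes, coloured by arm and day and shaped by line. Both sums are highest in FBS Stella-GFP at day 3, and the serum-free day 3 arrays have the lowest fibroblast sums. The FBS Dazl-GFP array at day 0 has a macrophage gene sum of 844%, with Lyz2 alone at 622%, at a fibroblast sum of 4715%.

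The comparisons that do not use day 3 arrays were tested. At day 0, 0 of 9 macrophage genes were called between the arms by limma, where 1.89% of all genes were called. At an unadjusted p under 0.05 it was 1 of 9, where 22.5% of all genes passed. The median difference was -0.45, beside -0.02 over all genes. Ctss came nearest, at -1.77 (SE 0.42, adjusted p = 0.0738), lower in serum-free medium in both lines. It passed with a variance trend (adjusted p = 0.0444) and reached 0.316 at most among the other whole-series settings. Lyz1 differed by -1.27 (SE 0.80, adjusted p = 0.372), but the lines disagreed: 0.18 in Stella-GFP and -2.72 in Dazl-GFP. Adgre1 disagreed too, at 2.28 and -0.31. Without overlap, 3 genes were lower in serum-free medium (Ctss, Tyrobp and Fcer1g), where 27% of all genes were, and 1 was higher (Csf1r), where 22.5% were. The Csf1r direction at day 0 rests on 1 probe, since the other 2 gave -0.41 and -0.45 against 0.40. The second Fcer1g probe, above background on 2 arrays, gave 0.45 against -0.45. Adgre1, Csf1r, Cd68 and Aif1 changed sign at day 0 in 1 of the 5 value settings.

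At day 10, again 0 of 9 genes were called between the arms by limma, where 5.63% of all genes were. At an unadjusted p under 0.05 it was 3, where 24.6% of all genes passed. On the arrays as scaled the 9 genes lay on both sides. Lyz1, Lyz2, Ctss and Tyrobp were lower on both serum-free arrays than on both FBS arrays, 4 genes where 21.6% of all genes were lower in this way. Adgre1, Csf1r, Aif1 and Fcer1g were higher on both, 4 genes where 33.8% of all genes were. No slide held both arms at day 0 or at day 10: at day 10 both serum-free arrays were on slide 3 and the FBS arrays on slides 1 and 2. With the slide as a term, the day 10 differences of Adgre1 (-1.90), Csf1r (-0.17) and Aif1 (-0.12) turned negative, and that of Fcer1g was 0.27. At day 0 the same fit turned Adgre1, Aif1, Cd68 and Csf1r negative. Ctss differed by -1.56 (SE 0.42, adjusted p = 0.077) and passed with a variance trend (adjusted p = 0.0456), with up to 0.999 among the other whole-series settings. Csf1r differed by 0.82 (SE 0.26, adjusted p = 0.116), and its other probes gave 0.36 and 0.83. Aif1 was at least 2.04-fold higher in serum-free medium (adjusted p = 0.18). The sign of Tyrobp at day 10 changed in 2 of the 5 value settings. The median over the 9 genes was -0.08, and over all genes 0.11.

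**Figure D4:**
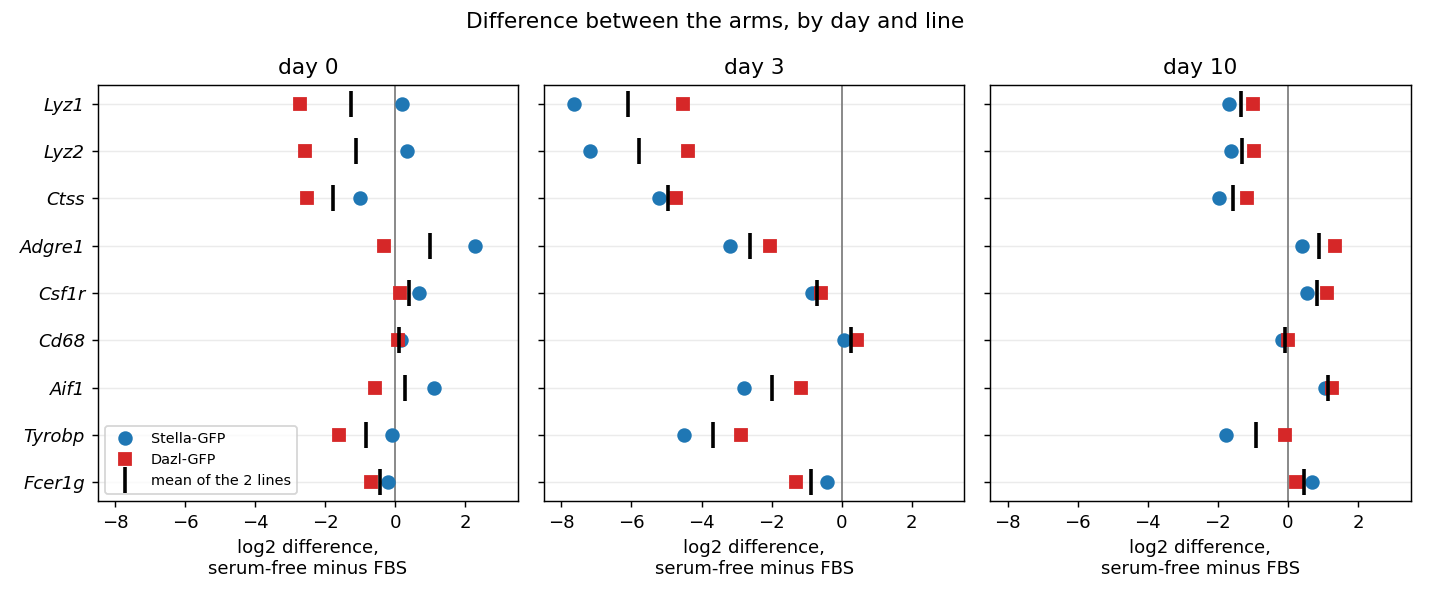
Difference between serum-free and FBS medium (log2) for each of the 9 genes at days 0, 3 and 10; circles are Stella-GFP, squares Dazl-GFP and black bars the mean of the lines. Differences reach -7.65 at day 3 (Lyz1, Stella-GFP, against a serum-free reading below detection). The lines lie on opposite sides of 0 for 4 genes at day 0, and at day 10 the 9 genes lie on both sides of 0.

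From day 0 to day 10, 0 of 9 genes were called in serum-free medium by limma, where 5.25% of all genes were. In FBS 0 of 9 were called as well, where 12.9% of all genes were. At an unadjusted p under 0.05 it was 2 of 9 in each arm, where 26.1% of all genes passed in serum-free medium and 28.5% in FBS. The lysozymes were below their day 0 level in both arms and both lines. In serum-free medium Lyz1 differed by -1.94 (SE 0.80, adjusted p = 0.179) and Lyz2 by -1.80 (SE 0.76, adjusted p = 0.185). In FBS Lyz1 differed by -1.87 (SE 0.80, adjusted p = 0.174) and Lyz2 by -1.62 (SE 0.76, adjusted p = 0.209). On single slides the Lyz1 difference was -2.68 for serum-free Stella-GFP and -2.92 for FBS Dazl-GFP. Cd68 went the other way, by 0.47 in FBS (SE 0.16, adjusted p = 0.105) and 0.27 in serum-free medium (adjusted p = 0.322). Tyrobp in FBS differed by -0.55 (adjusted p = 0.555) and passed with the slide as a term (-1.55, adjusted p = 0.0471). Over the other whole-series settings its adjusted p reached 0.68.

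The responses from day 0 to day 10 were set against each other. Between the arms they differed for 0 of 9 genes by limma, where 0.0656% of all genes were called. At an unadjusted p under 0.05 it was 1, where 19.5% of all genes passed. Fcer1g had the lowest p: it was 0.91 log2 more positive in serum-free medium (SE 0.38, adjusted p = 0.245), up in both lines there and down in both lines in FBS. Apart from Fcer1g and Cd68, the lines gave this difference opposite signs, as with Lyz1 at -1.85 in Stella-GFP and 1.73 in Dazl-GFP.

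Of the genes around them in these tested comparisons, the ligand Csf1 fell from day 0 to day 10 in both arms. It dropped by 1.67 in FBS (adjusted p = 0.0276) and by 2.06 in serum-free medium (adjusted p = 0.026), in both lines each time. Its day 0 values were 59.3% and 57.9% in FBS and 91.3% and 88.4% in serum-free medium. Its day 10 values were 29.2% and 11.5%, and 32.3% and 14.4%. Il34 rose in FBS by 1.25 (adjusted p = 0.0107), from 12.7% and 12.5% to at most 30.1%. Of 26 measured further macrophage genes, 3 rose in FBS to day 10, where 1617 of all 21344 genes did. Laptm5 was among them (1.28, adjusted p = 0.0307). Coro1a (-2.01, adjusted p = 0.0104) was the 1 that fell, where 1140 of all genes did. Between the arms at day 10, 2 of the 26 were lower in serum-free medium, where 773 of all genes were. Slc11a1 was among these (-1.81, adjusted p = 0.0128). Syk, the kinase that binds phosphorylated ITAM adaptors, was higher in serum-free medium at day 10 by 1.30 (adjusted p = 0.012). Ptpn6, a phosphatase that opposes it, was higher by 1.20 (adjusted p = 0.0216). No slide held both arms at day 10. With the slide as a term, 0 of all genes were called by limma between the arms at day 10, against 1202 without it. From day 0 to day 10 that fit called 11 genes in serum-free medium and 1313 in FBS, against 1120 and 2757.

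Between the reporter lines, 0 of 9 macrophage genes were called by limma, where 2.68% of all genes were. At an unadjusted p under 0.05 it was 1, where 16.9% of all genes passed. Cd68 was higher in Dazl-GFP in 6 of 6 groups, by 0.17 to 0.61 within groups and 0.44 on average (SE 0.09, adjusted p = 0.0583). It passed under 3 alternatives, with adjusted p = 0.0348 among genes above background on all arrays, 0.0382 with a variance trend and 0.0455 under normexp with extreme local backgrounds replaced. The highest adjusted p among the other whole-series settings was 0.838. Csf1r was higher in Dazl-GFP in 1 of 6 groups (mean difference -0.27, adjusted p = 0.422). Lyz1 and Lyz2 were higher in 4 of 6, most of all at day 0 in FBS, where Dazl-GFP exceeded Stella-GFP by 2.30 and 1.94 log2 on the same slide. A line difference that varied with the arm was called by limma for 0 of all 21344 genes, the 9 included (1 of the 9 at an unadjusted p under 0.05), so it says nothing particular of them.

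The 9 genes did not form 1 pattern across arrays. Tyrobp correlated with Ctss at r = 0.928 and with Lyz2 at 0.923, and Adgre1 with Aif1 at 0.938. Csf1r correlated with Adgre1 at 0.713 but with Lyz1 at 0.05. Cd68 ran between -0.35 and 0.10 with the others. These are descriptions over 12 arrays that share lines, slides and the choice of the genes.

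By Pearson's r with the mean of the 9 genes over the 12 arrays, the 10 most alike named genes outside the list were Ms4a7 (0.969), C1qc (0.963), Pirb (0.952), Casp12 (0.929), Tomm40l (0.929), Il1b (0.928), C1qa (0.922), Slc2a6 (0.92), Tcf3 (0.916) and Ttc23 (0.913). Ms4a7, C1qc and C1qa were on the list of further macrophage genes. Il1b was above background on 4 arrays only. Over whole lists the median r was 0.57 for 26 further macrophage genes (-0.57 to 0.97) and 0.76 for 14 fibroblast markers (0.35 to 0.88). The median over all genes is not given here. Genes that vary most weigh most in the mean of the 9 (SD 2.28 for Lyz1, 0.37 for Cd68). That mean includes the day 3 arrays on which the genes were chosen, so a high r in part restates the day 3 difference. These values are descriptions.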

How the data were processed

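Cy3-labelled total RNA was measured on 12 one-colour Agilent arrays. Per the file headers the deposited intensity of each spot came from Agilent Feature Extraction 9.1.3.1, background-subtracted and detrended. The raw mean and local background intensity, and other values, the 0 or 1 marks of detection and irregularity, come with it in the deposited files. In the deposited series table each value equals the background-subtracted intensity over the array's median; its processing is not stated.

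The log2 intensity minus each array's 75th percentile was used, irregular spots left out. Spots were averaged per probe, each gene was read from its brightest probe on average, and genes above background on at least 2 arrays were tested. Names came from RefSeq accessions for 22951 of 41174 probes. limma 3.58.1 in R 4.3.3 fitted 6 groups plus the cell line to 12 arrays (5 residual degrees of freedom), with p-values adjusted by Benjamini and Hochberg over 21344 genes. The script was tested on simulated data. Likeness was ranked over 15833 named genes. Promoter sequences are RefSeq's (GRCm38.p6). Figures were drawn with matplotlib 3.10.9.

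The labels give no replicate numbers. Each line pairs its arrays. Deviations of same-line arrays across genes, compared for 15 pairs of groups, correlated at -0.05 to 0.57, above 0.1 in 13. The 9 genes, the 11 other lists (further macrophage genes, Csf1r ligands and myeloid transcription factors, ITAM receptors, lysosomal genes, granulocyte, mast cell, lymphoid, erythroid and endothelial, fibroblast, ES cell and primitive endoderm markers) and the alternatives were chosen with earlier results of these data known. Named are the 9 genes, up to 3 called genes with the largest change per list and comparison, defining leukocyte and macrophage genes, and the 10 most alike genes, clone names left out; of these the text gives a part, and some are not reported here. Precision is limited by the number of arrays, 2 a group.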

Additional observations from a re-analysis of the deposited data

Results flagged for a closer look

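For 6 of the 9 genes, the change from day 0 to day 3 ran in opposite directions in the arms in both lines, upward in FBS and downward in serum-free medium. The differences of these changes were not tested, since the genes were chosen on day 3 values. The share of all genes with this pattern is not given here, so nothing is read from the count. On the log2 scale, serum-free minus FBS, the difference of the changes was -3.61 for Adgre1, -3.20 for Ctss, -1.11 for Csf1r and -0.41 for Fcer1g. For Tyrobp (-2.82) and Aif1 (-2.24) neither serum-free day 3 array was well above background, so these are readings below detection, with no order among the others and no exact size. The same holds for the Dazl-GFP array of Ctss. In Dazl-GFP the upward change in FBS was small for Tyrobp (0.14) and Aif1 (0.20), and in Stella-GFP for Fcer1g (0.06). The serum-free change of Csf1r was -0.13 in Stella-GFP and -0.03 in Dazl-GFP. A second Csf1r probe, above background on all 12 arrays, went the other way in serum-free Dazl-GFP, from 2.52% to 2.56%. The third probe went down there, from 1.46% to 0.989%, with neither reading well above background.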

How the results depend on the processing

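The median day 3 difference of the 9 genes (-2.62) was -1.43 under normexp background correction, with or without extreme local backgrounds replaced. That correction was run with an offset of 50 intensity units added to each reading, beside 75th percentiles of 454 to 947. An added offset narrows the log2 differences of dim readings, and its part in the smaller median was not tested. The median was -0.87 among genes above background on all 12 arrays, where 5 of the 9 remain, and -4.47 with the slide as a term. Leaving out each array in turn gave -3.39 to -1.86. The slide term turned the sign of 0 of the 9 genes between the arms at day 3, 4 at day 0 and 3 at day 10. The count of 0 macrophage genes called became 1 in these cases: between the lines under normexp with repaired backgrounds, the all-array filter and the variance trend; in FBS from day 0 to day 10 with the slide as a term; and between the arms at days 0 and 10 with the variance trend. Without the cell line as a replicate block, and without each array in turn, it stayed 0 in every comparison that could be fitted; without the block there is no line comparison. Quantile normalization, the authors' table and separate probes gave 0 as well. The 121 calls over the other lists became 13 under normexp, 187 with backgrounds repaired and 45 with the slide as a term, and ran from 66 to 126 without single arrays. This total was not computed without the line block or for only the groups compared, since the line comparison then has no value. Over all genes, 404 calls between the arms at day 0 became 143 without the block and ran from 0 to 1000 over the settings that kept all arrays, and 3 to 232 without single arrays. The 1202 at day 10 ran from 0 to 1760 and 15 (without FBS Dazl-GFP at day 10) to 1539, and were 611 without the block. From day 0 to day 10, 1120 in serum-free medium ran from 0 to 1516 and 0 to 1446 (600 without the block), and 2757 in FBS from 0 to 3948 and 671 to 2435 (1929 without the block). The 14 for the difference of responses ran from 0 to 332 and 0 to 37, and the 573 for the lines from 1 to 1320 and 184 to 407. The cause was not tested. With 2 arrays a group, and probes such as those of Tyrobp and Aif1 near background, small differences were out of reach.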

Other observations

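Among the lymphoid markers, given above only as a count at day 3, 9 were measured and 3 were above background on no array. From day 0 to day 10, 2 were called higher and 0 lower in FBS, where 12.9% of all genes were called in either direction. In serum-free medium 1 was called higher and 0 lower, where 5.25% of all genes were called. Cd3d rose in both arms. It was at least 6.75-fold higher in FBS (adjusted p = 0.00209) and at least 1.67-fold higher in serum-free medium (adjusted p = 0.0161), in both lines each time and above background on no day 0 array. Cd3g, its neighbour in the T cell receptor complex, was at least 4.33-fold higher in FBS (adjusted p = 0.0072). Cd3e, another chain of the complex, was above background on all 12 arrays and fell at day 3 in serum-free relative to FBS medium (-1.12, adjusted p = 0.0177), as did the kinase Lck (-1.41, adjusted p = 0.013).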
